A study of Homo sapiens with 12 samples.

Results

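C4-2, a castration-resistant line derived from LNCaP prostate cancer cells, was compared with and without added ARv7 across all measured genes. The 6 libraries described here were chosen by their labels, 3 of C4-2 cells with a control lentivirus (lv-control) and 3 of C4-2 cells with a lentivirus expressing ARv7 (lv-ARv7), out of 12 in the series. The other 6 are 22Rv-1 cells, a second prostate cancer line, with a control short hairpin (lv-shcontrol) or one that depletes ARv7 (lv-shARv7), and are used here only to ask whether a response differs between lines. All cells were lentivirus-infected, puromycin-selected and grown with fetal bovine serum. Dishes were plated in triplicate from each selected population, so p-values measure only the spread between dishes, which may be technical, and any other difference between the selected populations goes with the group. The sources used here do not give the promoter that drives ARv7, the number of populations selected or whether they were clones. In bulk RNA, fewer cells of a state and less RNA per cell cannot be told apart.

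Androgens act on luminal prostate cells through a steroid-activated transcription factor and drive secretory genes such as kallikreins and genes of lipid, polyamine and glycan metabolism. ARv7 is a splice variant of that factor which lacks the ligand-binding domain and is active without hormone. It is known in prostate cancer for its link to resistance to drugs that act through that domain. Androgen action also lowers some genes, among them genes of steroid supply.

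The depth was 12318529 to 14672948 counts per library, and levels are given in CPM, counts scaled to a common library size with trimmed-mean (TMM) factors. edgeR's quasi-likelihood test called 7557 of 12783 tested genes (59.1%) at a Benjamini-Hochberg adjusted p under 0.05, 3781 higher (29.6%) and 3776 lower (29.5%). Of these, 1089 were at least 2-fold higher (8.52%) and 604 at least 2-fold lower (4.73%). These shares are the background, with TMM, for every list below, and "rose" and "fell" are used for called genes. Among genes said to rise or fall the largest adjusted p was 0.0392, of CD36. Genes of the cell cycle and DNA repair gave 203 of the at least 2-fold rises, and outside that list 886 genes were at least 2-fold higher and 603 lower. Scaling by total counts shifted the median log2 change of all genes from 0.005 to 0.152, so changes are relative to the scaling. It gave 5159 higher and 2523 lower calls (67.2% higher), the background for list counts given with total counts. Control replicate 3 stood farthest from its group, and chi-square over degrees of freedom was 12.66 and 7.02 when it was compared with control replicates 1 and 2, and 2.12 to 3.71 in the remaining pairs of C4-2 replicates. Without it, 3927 genes were called higher and 3943 lower. Cytosolic ribosomal protein genes fell in 66 of 80 and rose in 5 (61 and 7 with total counts), with a median log2 change of -0.45. Their summed FPKM was 29846, 31191 and 34014 in control replicates 1 to 3 and 24572 to 25454 with ARv7. Of 13 mitochondrially encoded genes 12 fell (10 with total counts), at a median log2 change of -0.60 and a summed FPKM of 39441, 41971 and 45196 in control and 31019 to 33275 with ARv7. Both sums were highest in control replicate 3, and the groups did not overlap. Their part in the other results was not tested. Markers of luminal cells were abundant: the summed FPKM of 12 luminal markers was 1442 to 1447 in control and 2492 to 2527 with ARv7, and all 12 were tested. Summed FPKM of 8 basal, 8 neuroendocrine, 10 fibroblast, 8 endothelial and 10 leukocyte markers stayed at or below 7.23 in every library, and that of 8 urothelial markers went from 3.01 to 3.58 in control to 9.68 to 11.05 with ARv7. The leukocyte gene PTPRC stood at mean FPKM of 0.0349 and 0.0365, the basal keratin gene KRT5 of 0.0111 and 0.0776 and the neuroendocrine gene CHGA of 0.113 and 0.00895 in control and ARv7 libraries. These 3 markers, FOXA1 and ARRDC4 were chosen for naming after their values were seen.

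**Figure D1:**
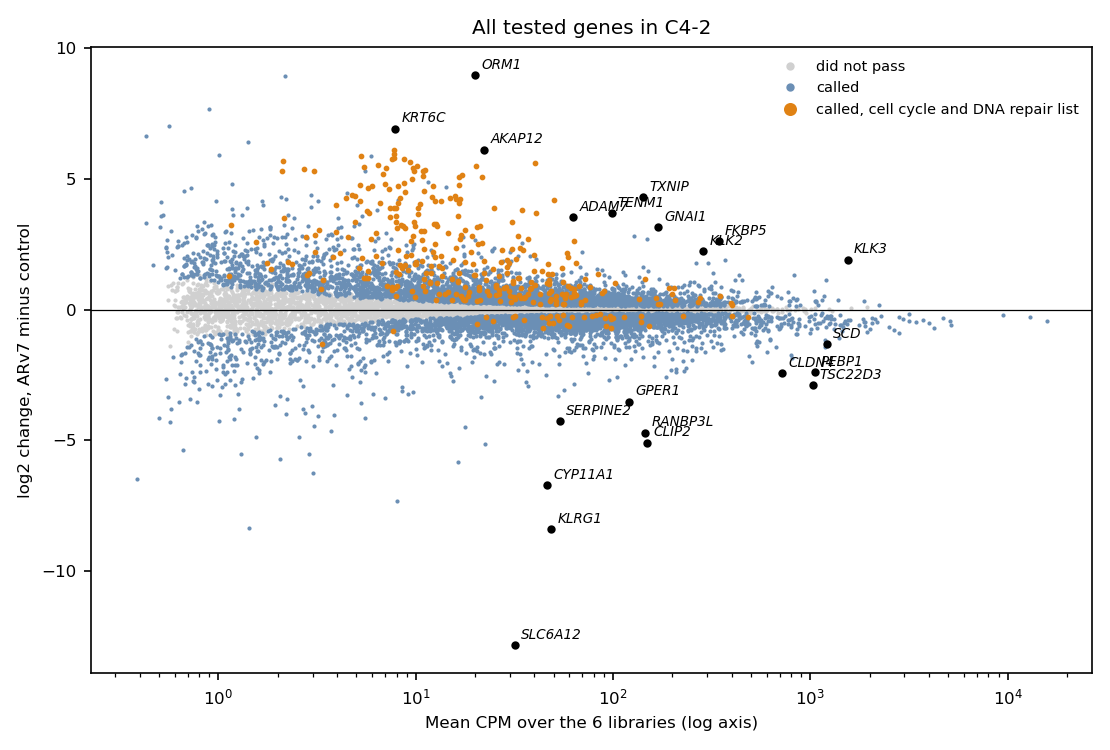
Each point is a tested gene, with its mean CPM over the 6 C4-2 libraries on a log axis and its log2 change, ARv7 minus control, on the other. Orange points are called genes of the cell cycle and DNA repair list, and black points mark some of the genes named in the text, with TSC22D3, CLDN4, PEBP1 and SCD among the abundant genes that fell.

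The promoters of a kallikrein pair and of a pair of arrestin genes are shown because their genes moved together and carry letters known as binding elements. Sequences are the 250 bases before the RefSeq start on GRCh38.p14, 5′ to 3′. In the kallikrein genes KLK3 (chr19:50854665-50854914, plus strand) and KLK2 (chr19:50873189-50873438, plus strand) capitals mark GAACANNNAGTGCT, the core letters of a steroid receptor element described in the KLK3 promoter.
KLK3: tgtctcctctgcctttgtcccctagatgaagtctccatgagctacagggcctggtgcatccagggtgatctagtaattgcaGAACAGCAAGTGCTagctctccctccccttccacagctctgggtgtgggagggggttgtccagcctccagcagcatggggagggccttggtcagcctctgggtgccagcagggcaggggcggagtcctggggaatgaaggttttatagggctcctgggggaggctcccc
KLK2: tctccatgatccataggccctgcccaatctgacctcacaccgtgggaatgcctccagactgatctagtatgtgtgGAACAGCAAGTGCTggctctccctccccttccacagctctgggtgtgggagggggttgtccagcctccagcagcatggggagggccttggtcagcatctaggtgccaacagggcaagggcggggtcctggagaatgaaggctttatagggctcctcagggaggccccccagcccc
Both held the same letters, GAACAGCAAGTGCT, from base 169 to base 156 before the start in KLK3 and from 175 to 162 in KLK2. On both strands, 14 of 35116 RefSeq promoters of this length (0.0399%) held a match. Because the letters are those of the KLK3 element, the match in KLK3 was fixed in advance. The pattern leaves out the base just before them, which is A in KLK3 and G in KLK2. Both promoters also share long stretches beside the match, so the match in KLK2 is not independent of that in KLK3. This share is therefore no evidence about either gene. In TXNIP (chr1:145996580-145996829, minus strand), capitals mark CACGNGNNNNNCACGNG, a pair of E-box-like letters known as a carbohydrate response element, and in ARRDC4 (chr15:97960453-97960702, plus strand) the E-box CACGTG.
TXNIP: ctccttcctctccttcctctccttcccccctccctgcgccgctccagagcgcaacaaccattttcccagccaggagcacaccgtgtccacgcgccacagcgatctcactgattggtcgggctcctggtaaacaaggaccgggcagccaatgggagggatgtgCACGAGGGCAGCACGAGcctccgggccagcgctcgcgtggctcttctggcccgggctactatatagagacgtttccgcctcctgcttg
ARRDC4: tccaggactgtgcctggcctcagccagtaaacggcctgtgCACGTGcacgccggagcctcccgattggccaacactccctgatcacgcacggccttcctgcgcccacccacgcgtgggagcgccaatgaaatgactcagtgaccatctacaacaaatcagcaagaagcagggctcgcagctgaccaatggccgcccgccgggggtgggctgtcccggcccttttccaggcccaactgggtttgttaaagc
The paired letters of TXNIP lay 88 to 72 bases before the start and were matched in 16 promoters (0.0456%), while CACGTG, 210 to 205 bases before the start of ARRDC4, was matched in 6.34%. The shorter motif can lie inside the longer one. A match describes letters only.

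Androgen-induced genes mostly rose, but some abundant members fell. Among the 41 tested, 24 rose and 11 fell, 15 and 4 of them at least 2-fold, and the median log2 change was 0.36 against 0.005 over all tested genes. KLK2, a secreted protease that activates prostate-specific antigen, stood at 90.4, 102 and 109 CPM in control and 479, 483 and 454 with ARv7. The groups did not overlap, as was so for 8098 tested genes (63.3%) in one direction or the other, and the ARv7 libraries lay close together (log2 2.23, SE 0.0681, edgeR adjusted p = 7.15e-16). Its neighbour KLK3, whose promoter is shown above, rose 3.75-fold, while KLK4, another kallikrein of the locus, fell (log2 -0.52). Reads of KLK2 and KLK3, which are close paralogs, may be shared in part.

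ELL2, a transcription elongation factor, was low in each control library at 31.1, 32.0 and 33.1 CPM and reached 212, 228 and 228 with ARv7. MAF, a leucine zipper transcription factor, rose from 39.2 ± 4.08 to 257 ± 5.29 CPM (SD, n = 3, as for all means here). Of the remaining rising members, NDRG1, a stress-responsive gene, rose 3.72-fold, LIFR, the receptor of leukaemia inhibitory factor, 2.85-fold, and SLC45A3, which encodes prostein, 1.61-fold. TMPRSS2, a transmembrane serine protease, rose 1.42-fold.

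Opposite to these, TSC22D3, a leucine zipper gene induced by glucocorticoids and androgens, had 1724, 1807 and 1931 CPM in control and 253, 249 and 241 with ARv7. It was among the most abundant members in control cells and was lower in every ARv7 library (log2 -2.88, SE 0.0629, edgeR adjusted p = 8.56e-18). UAP1, which makes the sugar nucleotide UDP-GlcNAc, had 1016, 994 and 929 and 347, 379 and 361 CPM (log2 -1.44), and KCNN2, a calcium-activated potassium channel, 381, 397 and 415 and 100.4, 105 and 107 (log2 -1.93). ABCC4, a drug and nucleotide exporter, fell from 776 ± 23.3 to 448 ± 0.678 CPM. DUSP1, a phosphatase of MAP kinases that glucocorticoids induce, fell from 86.5 ± 6.61 to 28.2 ± 2.59 CPM. MT2A, a metallothionein gene, fell from 56.5 ± 8.18 to 13.4 ± 1.80 CPM. FKBP5, a steroid receptor cochaperone induced by both hormones, rose 6.07-fold.

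**Figure D2:**
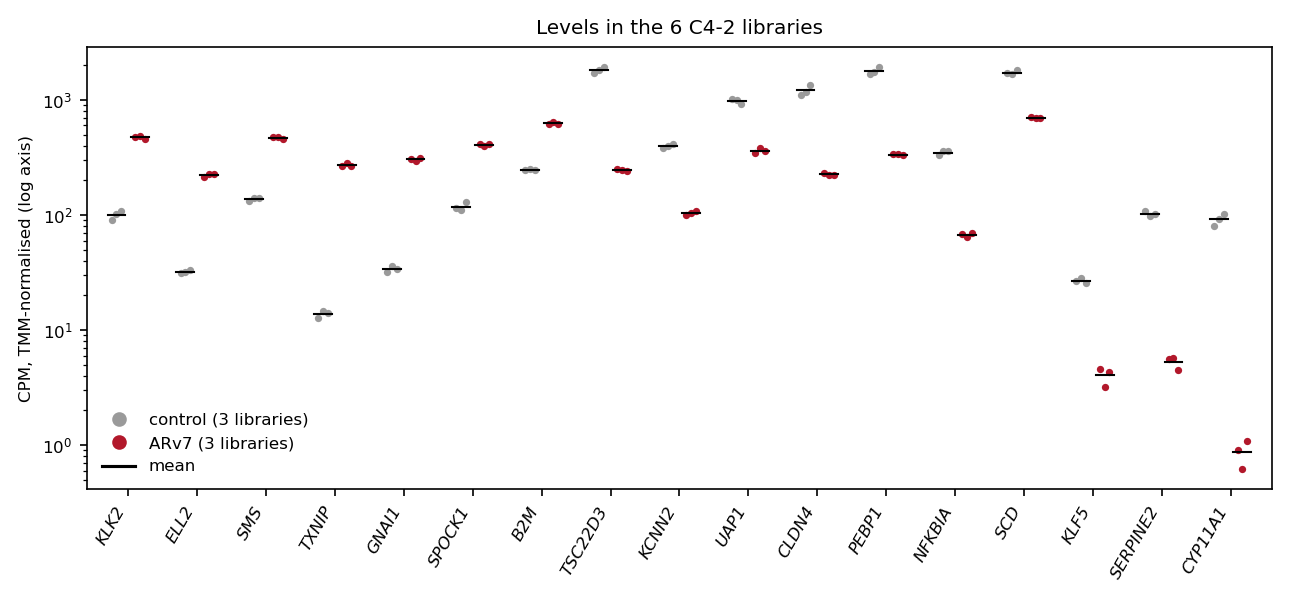
Levels of 17 genes in CPM on a log axis, with each point a library, grey for control and red for ARv7, and a bar at the mean of 3. In each gene shown the groups do not overlap, with KLK2, ELL2, SMS, TXNIP, GNAI1, SPOCK1 and B2M higher with ARv7 and TSC22D3 to CYP11A1 lower.

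Factors of luminal and epithelial identity moved in both directions. Of 23 tested lineage transcription factors, 8 rose and 9 fell, 3 each at least 2-fold, and with total counts 9 rose and 6 fell. KLF5, a Krueppel-like factor of epithelial cells, had 26.6, 28.5 and 25.7 CPM in control and 4.61, 3.21 and 4.32 with ARv7, a difference far wider than the spread in either group (log2 -2.73, edgeR adjusted p = 2.81e-12). ELF3, an epithelial ETS factor, fell from 50.6 ± 4.45 to 19.1 ± 2.21 CPM. TBX3, a T-box repressor, fell from 696 ± 40.3 to 355 ± 7.86 CPM. HOXB13, a homeobox factor of prostate cells, fell from 558 ± 67.6 to 379 ± 15.3 CPM. ESRP2, an epithelial splicing regulator, rose 1.62-fold. FOXA1, the pioneer factor that opens chromatin for steroid receptors, had log2 -0.15 with TMM and 0.002 with total counts (edgeR adjusted p = 0.0269 and 0.975). All 6 called HOX genes of 10 tested fell, among them HOXC13 (log2 -1.58) and HOXC9 (log2 -1.44), which pattern the body axis.

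The balance of rises and falls among coregulators and steroid enzymes depended on the scaling, as it did over all tested genes. Of 27 tested coregulators and steroid receptors 6 rose (10 with total counts, and 3 with TMM without control replicate 2) and 9 fell (7 with total counts). NCOA1, a histone acetyltransferase coactivator, fell from 221 ± 12.5 to 85.6 ± 5.02 CPM. BAG1, a cochaperone, fell from 101 ± 7.86 to 58.1 ± 8.38 CPM. In steroid synthesis and inactivation 8 of 24 rose (5 without ARv7 replicate 3, 10 with total counts) and 11 fell (6 with total counts). CYP11A1, the mitochondrial enzyme that starts steroid synthesis from cholesterol, had 80.5, 93.0 and 101 CPM in control and 0.910, 0.615 and 1.08 with ARv7, 105-fold lower. HSD17B7, which acts in oestradiol and cholesterol synthesis, fell from 73.2 ± 1.67 to 26.0 ± 0.670 CPM. HSD17B8, a related dehydrogenase, rose from 16.6 ± 2.61 to 33.4 ± 1.62 CPM. UGT2B28, of the family that glucuronidates androgens, had a count ratio of 16.9 (7.49 to 47.3), by total counts with an exact 95% counting interval, as for all ratios here. Reads of UGT2B paralogs may be shared.

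Tight junction genes fell more often than they rose under both scalings, and a keratin cluster on chromosome 12 rose. Claudins seal the space between epithelial cells, and keratins form their intermediate filaments. Of 28 tested claudins and tight junction genes 15 fell and 5 rose (3 without ARv7 replicate 1, ARv7 replicate 3 or control replicate 3, 8 with total counts), and the median log2 change was -0.46. CLDN4, a barrier claudin, had 1110, 1171 and 1356 CPM in control and 232, 224 and 223 with ARv7. Control values spread widely, yet the lowest of them lay far above every ARv7 library (log2 -2.42, SE 0.0706, edgeR adjusted p = 3.05e-16). CLDN12, another claudin, fell from 347 ± 26.9 to 155 ± 5.57 CPM. CGN, the cytoplasmic linker cingulin, fell from 88.5 ± 5.04 to 31.7 ± 2.18 CPM. TJP1, the scaffold ZO-1, fell from 729 ± 31.2 to 429 ± 9.53 CPM. F11R, a junctional adhesion molecule, rose from 38.9 ± 3.13 to 49.5 ± 2.10 CPM. CLDN5, a claudin of endothelium, was at 0 counts in control and at 0.845, 0.820 and 0.925 CPM with ARv7, at least 13.2-fold higher against a floor of 3 counts over the group, as for all such bounds.

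Of 9 tested keratins 5 rose, all at least 2-fold, and 2 fell. KRT6C, a keratin of stressed epidermis, had 0.0708, 0.213 and 0.0750 CPM in control and 15.7, 13.6 and 17.6 with ARv7, a ratio of 143 (60.9 to 441). Its neighbours on chromosome 12 rose too: KRT6B was at 0 counts in control (at least 65.9-fold higher), KRT6A had a ratio of 21.1 (10.9 to 46.98) and KRT80 of 10.5 (6.36 to 18.4). These 4 are consecutive tested genes (52168996 to 52493257, GRCh38, as are all positions here), and reads of the KRT6 paralogs may be shared. KRT19, a simple epithelial keratin elsewhere, rose 4.96-fold, and KRT8, the luminal keratin, fell from 368 ± 50.8 to 280.4 ± 10.5 CPM. Other adhesion genes moved both ways. ITGA3, a laminin-binding integrin, fell from 55.3 ± 3.73 to 20.1 ± 2.58 CPM. JUP, plakoglobin of desmosomes, fell from 489.7 ± 66.3 to 353 ± 17.8 CPM. PCDH7, a protocadherin, rose from 14.2 ± 1.32 to 37.95 ± 1.80 CPM. CELSR1, a planar polarity cadherin, rose from 42.3 ± 2.58 to 87.2 ± 5.25 CPM.

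The extracellular matrix list held large changes in both directions. Of 38 tested laminins and matrix glycoproteins 10 rose and 10 fell, 5 and 8 at least 2-fold. SPOCK1, a secreted matrix proteoglycan, had 115, 111 and 129 CPM in control and 411, 398 and 414 with ARv7 (log2 1.79, edgeR adjusted p = 7.94e-15). LAMA3, a laminin chain, rose from 140.1 ± 0.725 to 255 ± 8.58 CPM. RELN, a secreted guidance protein, fell from 161 ± 7.83 to 43.8 ± 2.43 CPM. FBN1, a microfibril protein, fell from 33.9 ± 4.04 to 1.52 ± 0.507 CPM. SPARC, a collagen-binding protein, had a ratio of 12.98 (7.69 to 23.6) in the same direction. In the collagen list 12 of 32 rose and 8 fell. PLOD2, which hydroxylates collagen lysines, rose from 2.41 ± 0.710 to 12.4 ± 0.762 CPM. P4HA1, which hydroxylates prolines, fell from 251 ± 23.9 to 71.5 ± 1.60 CPM.

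Among proteases and inhibitors, 12 of 29 tested ADAM, ADAMTS, MMP and TIMP genes rose and 4 fell. ADAM7, a membrane protein of the ADAM family with no known protease activity, had 9.70, 10.39 and 9.67 CPM in control and 114, 119.5 and 114 with ARv7, 11.7-fold higher. ADAMTS1, which cleaves proteoglycans, rose from 91.0 ± 3.33 to 189.8 ± 9.99 CPM. MMP16, a membrane metalloprotease, fell from 120.3 ± 9.65 to 64.6 ± 2.12 CPM. Of 10 tested serpins, inhibitors of serine proteases, 4 rose and 3 fell. SERPINE2, which inhibits thrombin and urokinase, had 107, 97.2 and 102 CPM in control and 5.59, 5.74 and 4.47 with ARv7 (log2 -4.27), and SERPINA5, the protein C inhibitor, a ratio of 156 (60.5 to 573) toward control. SERPINB5, maspin, rose from 3.30 ± 0.0271 to 9.68 ± 1.06 CPM. SPINT2, an inhibitor of the TMPRSS2 family, fell from 300.0 ± 28.4 to 141 ± 5.72 CPM.

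**Figure D3:**
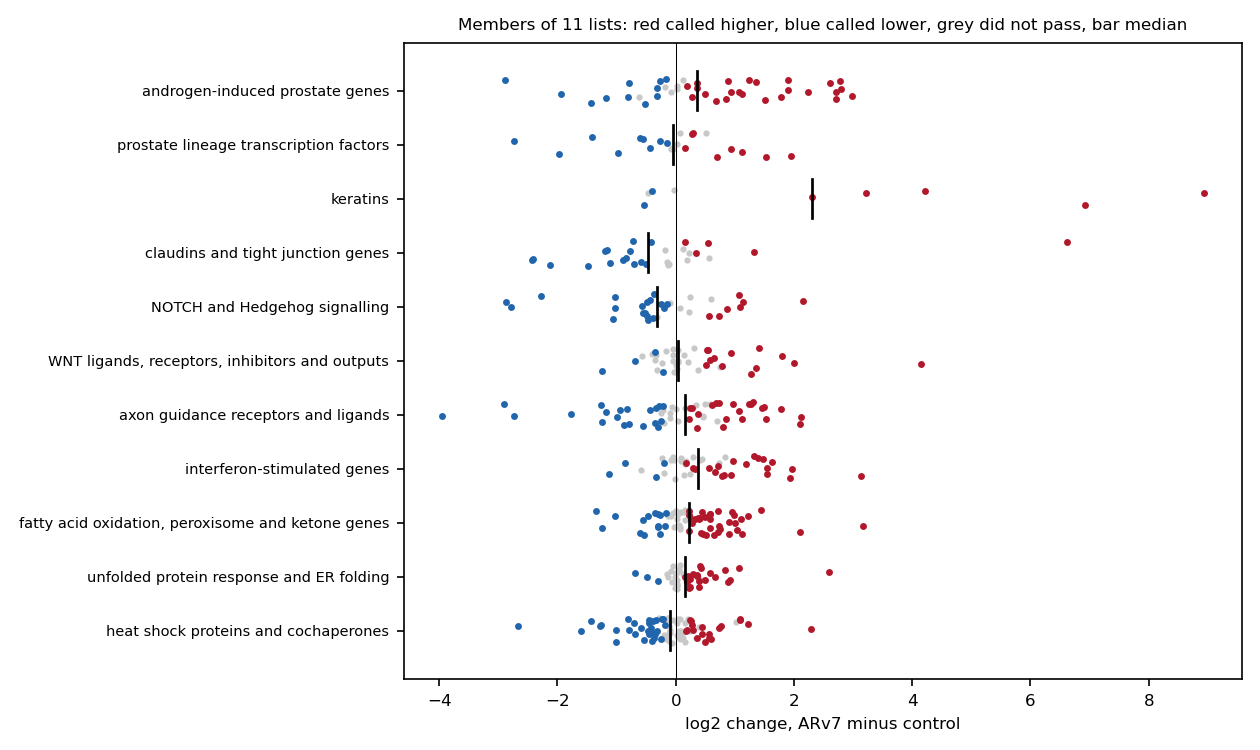
Log2 change, ARv7 minus control, of every tested member of 11 lists, with red for called higher, blue for called lower, grey for members that did not pass and a black bar at the median. Tight junction genes and NOTCH and Hedgehog genes have medians of -0.46 and -0.32, and androgen-induced genes of 0.36.

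Genes known from neurons were called in both directions, as all tested genes were (29.6% higher and 29.5% lower). Of 57 tested axon guidance genes 22 rose (38.6%) and 20 fell (35.1%), or 25 and 14 with total counts. EFNA5, an ephrin that signals by contact, had 736, 778 and 759.5 CPM in control and 226, 224 and 219 with ARv7 (log2 -1.76). EPHA3, an ephrin receptor, rose from 6.62 ± 0.306 to 28.6 ± 2.60 CPM. SEMA3C, a secreted semaphorin known as an androgen target, rose from 10.8 ± 2.71 to 26.7 ± 2.27 CPM. UNC5B, a netrin receptor, fell from 43.6 ± 5.96 to 6.57 ± 0.246 CPM. TENM1, a teneurin adhesion protein, had 15.4, 14.6 and 12.2 CPM in control and 181, 185 and 183 with ARv7, 12.98-fold higher.

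Of 34 tested neuroendocrine and synaptic genes 13 fell (38.2%) and 7 rose (20.6%), or 11 and 8 with total counts. In the fit of all 12 libraries, which keeps more low genes, 15 fell and 16 rose. In the 6 C4-2 libraries alone, 3 members rose at least 2-fold and no member fell 2-fold. The shares over all tested genes were 8.52% and 4.73%. MAP2, a microtubule-associated protein of dendrites, had 25.1, 25.7 and 23.99 CPM in control and 113, 119 and 113 with ARv7 (log2 2.20). ENO2, neuron-specific enolase, fell from 52.1 ± 6.28 to 26.4 ± 2.72 CPM. In the transmitter list 17 of 44 rose and 15 fell. SLC6A12, a betaine and GABA transporter, had 58.9, 61.4 and 70.4 CPM in control and 0 counts in each ARv7 library, at least 821-fold lower. SLC1A3, a glutamate transporter, fell from 25.9 ± 1.38 to 4.46 ± 0.276 CPM. GRIN3A, a glutamate receptor subunit, rose from 60.3 ± 2.46 to 165 ± 3.29 CPM.

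Signalling genes changed at several levels. Of 31 tested NOTCH and Hedgehog genes 18 fell and 7 rose (11 and 8 with total counts). With TMM, 4 rose without control replicate 1. The median log2 change was -0.32 with TMM and -0.175 with total counts. JAG1, a NOTCH ligand, had 343, 343 and 377 CPM in control and 174, 178 and 172 with ARv7. HEY1, a repressor that NOTCH induces, had 9.49, 8.19 and 9.60 and 0.780, 1.09 and 2.16 CPM, and MAML3, a NOTCH coactivator, fell from 60.3 ± 2.90 to 28.96 ± 2.73 CPM. In the other direction HES6, a HES relative that opposes other HES repressors, had 236, 265 and 278 CPM in control and 565, 567 and 589 with ARv7, and NOTCH2, a receptor, rose 1.67-fold. No group overlapped for these genes.

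Of 38 tested WNT genes 13 rose and 4 fell. ROR1, a receptor of noncanonical WNT ligands, rose from 7.76 ± 0.996 to 26.9 ± 1.09 CPM. TCF7L2, a nuclear effector, rose from 5.404 ± 0.920 to 13.02 ± 1.18 CPM. FZD5, a frizzled receptor, rose from 71.0 ± 3.53 to 111 ± 4.42 CPM. AXIN1, a scaffold that degrades beta-catenin, fell from 94.6 ± 8.29 to 58.4 ± 3.38 CPM. In TGF-beta and BMP signalling 12 of 41 rose and 14 fell (16 and 10 with total counts). TGFBR3, the coreceptor betaglycan, fell from 118 ± 5.70 to 28.9 ± 3.89 CPM. PMEPA1, a feedback inhibitor induced by androgen, rose from 212 ± 25.3 to 443 ± 4.97 CPM. Growth factor genes fell in 13 of 34 and rose in 8 (12 and 13 with total counts). EGFR fell from 327 ± 13.8 to 162 ± 3.28 CPM. ERBB3, its heregulin-binding relative, rose from 109 ± 3.84 to 171 ± 3.91 CPM. IGF2R, which clears IGF2, fell from 756 ± 20.5 to 310.1 ± 11.9 CPM. IRS1, an insulin receptor adaptor, rose from 77.7 ± 4.84 to 126 ± 0.725 CPM.

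The inhibitors PEBP1 and NFKBIA, of kinase and of NF-kB signalling, fell. PEBP1, the Raf kinase inhibitor protein, had 1666, 1739 and 1916 CPM in control and 339, 337 and 329 with ARv7 (log2 -2.40, SE 0.0637, edgeR adjusted p = 8.95e-17). NFKBIA, the inhibitor that holds NF-kB in the cytoplasm and is itself an NF-kB target, had 331, 357 and 357 CPM and 68.5, 65.0 and 69.2 (log2 -2.37). Each ARv7 library lay below each control library for both genes. In the NF-kB and TNF list 16 of 39 fell and 10 rose (13 and 12 with total counts). NFKB1, the p50 subunit, and TNFSF15, a TNF-family cytokine, fell (log2 -1.22 and -1.58), and TNFAIP8, an apoptosis regulator, rose (log2 2.05).

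G protein and cAMP genes included several of the largest changes. GNAI1, an inhibitory G protein subunit that lowers cAMP, had 31.9, 36.3 and 33.7 CPM in control and 304, 296 and 313 with ARv7 (log2 3.16). AKAP12, an anchor of protein kinase A, had a ratio of 77.6 (52.8 to 119). ADCY9, an adenylyl cyclase, fell from 124.4 ± 3.997 to 34.02 ± 3.41 CPM. GPER1, a membrane oestrogen receptor, fell from 222 ± 20.1 to 19.3 ± 1.33 CPM. RAMP1, which shapes the receptor of calcitonin gene-related peptide, fell from 812 ± 123.7 to 205 ± 4.95 CPM. Over the cAMP list 17 of 57 rose and 18 fell (23 and 16 with total counts).

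Interferon-stimulated and antigen presentation genes rose more often than they fell. Of 42 tested interferon-stimulated genes 20 rose and 4 fell (2 with total counts or without ARv7 replicate 2). HERC6, a ubiquitin ligase relative, rose from 10.1 ± 1.14 to 28.1 ± 0.590 CPM. ISG20, an exonuclease, rose from 14.8 ± 1.98 to 26.3 ± 1.22 CPM. CMPK2, a mitochondrial nucleotide kinase, fell from 7.64 ± 1.24 to 3.51 ± 0.907 CPM. B2M, the light chain of class I molecules, had 244, 251 and 248 CPM in control and 622, 638 and 621 with ARv7 (log2 1.34). TAPBP, tapasin, which loads peptides onto class I molecules, went the other way, with 257, 263 and 267 and 60.8, 57.9 and 59.8 CPM (log2 -2.14). Of 26 tested antigen presentation genes 10 rose and 4 fell (2 with total counts).

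Acute-phase, complement and coagulation genes rose in 13 of 32 and fell in 4. ORM1, an acute-phase plasma glycoprotein of liver, had 0, 0.0712 and 0.150 CPM in control and 37.2, 40.0 and 42.6 with ARv7, a ratio of 609 (208 to 2958). Its paralog ORM2 had a ratio of 67.2 (33.8 to 156), and reads of these paralogs may be shared. F2RL1, a receptor cleaved by serine proteases, rose from 71.8 ± 5.50 to 138 ± 2.13 CPM. KLRG1 and CLEC7A, lectin receptors known from leukocytes, fell, with 93.3, 108 and 88.2 CPM in control and 0.260, 0.137 and 0.463 with ARv7 for KLRG1. Leukocyte markers summed to 1.41 to 2.37 FPKM in control and 0.71 to 1.36 with ARv7, and their part in these falls was not tested.

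Polyamine enzymes changed in opposite directions. In polyamine and creatine metabolism 12 of 28 rose and 6 fell. SMS, which makes spermine, had 132, 139.5 and 140.5 CPM in control and 474, 478 and 461 with ARv7 (log2 1.78). ODC1, the first enzyme of the pathway, had 296, 309 and 319.7 and 507, 501 and 506 CPM, and AMD1, which supplies the aminopropyl groups, fell with 1782, 1730 and 1668 and 614, 669.8 and 655 (log2 -1.42). The groups did not overlap for any of these 3 enzymes. CKB, brain creatine kinase, rose from 452 ± 60.7 to 828 ± 11.7 CPM.

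Genes of fatty acid oxidation, peroxisomes and ketone synthesis rose in 35 of 69 and fell in 15 (6 with total counts), with a median log2 change of 0.22. CPT2, which delivers acyl groups inside mitochondria, rose from 13.4 ± 1.34 to 28.7 ± 1.96 CPM. ACOX2, a peroxisomal oxidase, rose from 2.72 ± 0.256 to 11.7 ± 1.296 CPM. PHYH, of peroxisomal alpha-oxidation, rose from 43.0 ± 0.684 to 79.9 ± 3.27 CPM. In fatty acid synthesis SCD, the desaturase that makes oleate, had 1711, 1679 and 1809 CPM in control and 714, 691 and 693 with ARv7 (log2 -1.31), and ELOVL7, an elongase, fell from 480.5 ± 10.5 to 196 ± 6.48 CPM. ACSL3, an acyl-CoA synthetase of lipid droplets and an androgen target, rose from 476 ± 47.6 to 1176 ± 32.0 CPM. ABCG1, a sterol exporter, and INSIG1 and INSIG2, which retain the sterol sensor, fell (log2 -1.89, -1.31 and -1.39).

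TXNIP, an arrestin that restrains glucose uptake and binds thioredoxin, was the gene with the largest rise among those above 10 CPM in control. It had 12.8, 14.7 and 14.1 CPM in control and 264, 282 and 265 with ARv7 (log2 4.28, SE 0.0765, edgeR adjusted p = 4.12e-19). The related ARRDC3 and ARRDC4 rose from 10.1 ± 1.01 to 59.4 ± 2.26 CPM and from 5.09 ± 0.803 to 13.3 ± 0.787 CPM. MLX, the partner of the sugar-sensing factors that bind carbohydrate response elements, fell from 130.1 ± 12.1 to 73.6 ± 1.10 CPM. Of 51 tested genes of glycolysis and glucose entry 16 rose (26 with total counts) and 11 fell (7 with total counts). PDK1, which shuts pyruvate out of the citric acid cycle, rose from 30.1 ± 0.954 to 67.8 ± 4.65 CPM. PFKFB3, an activator of glycolysis, fell from 73.9 ± 4.72 to 31.4 ± 2.42 CPM.

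Genes of serine synthesis, one-carbon metabolism and the amino acid stress response fell more often than they rose. Of 40 tested 27 fell and 6 rose (19 and 10 with total counts), with a median log2 change of -0.29. PHGDH, the first enzyme of serine synthesis, had 1681, 1881 and 2159 CPM in control and 925, 868 and 878 with ARv7 (log2 -1.10, SE 0.0739, edgeR adjusted p = 1.54e-10). PSAT1, the next enzyme, had 1597, 1638 and 1723 CPM in control and 732, 731 and 744 with ARv7 (log2 -1.17). The groups did not overlap in either gene. STC2, a secreted stanniocalcin, fell from 868 ± 0.689 to 387 ± 7.90 CPM. GDF15, a secreted stress cytokine, fell from 222 ± 26.9 to 109.6 ± 2.79 CPM. ALDH18A1, of proline synthesis, rose from 158 ± 10.5 to 213 ± 6.66 CPM.

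Lipid mediator, redox and metal genes were called in both directions, as all tested genes were (29.6% higher and 29.5% lower). In the prostaglandin, retinoid and vitamin D list 12 of 44 rose (27.3%) and 16 fell (36.4%), 9 each at least 2-fold. With total counts 15 rose and 13 fell. PLA2G2A, a secreted phospholipase, fell from 85.8 ± 5.21 to 20.1 ± 2.00 CPM. TBXAS1, thromboxane synthase, fell from 45.3 ± 0.443 to 10.7 ± 0.506 CPM. PTGFR, a prostaglandin receptor gene, rose from 189 ± 5.39 to 355 ± 14.8 CPM. Of 51 tested glutathione and redox genes 14 rose (27.5%) and 25 fell (49.0%), 4 and 1 at least 2-fold. With total counts 19 rose and 18 fell. SOD2, the mitochondrial superoxide dismutase, fell from 139 ± 7.85 to 56.7 ± 2.20 CPM. PRDX5, a peroxiredoxin, fell from 395 ± 44.5 to 222 ± 3.19 CPM. NNT, a mitochondrial transhydrogenase, had 0.283, 0.285 and 0.225 CPM in control and 10.2, 12.2 and 10.1 with ARv7, a ratio of 45.3 (25.1 to 91.3). Among 37 tested metallothionein, zinc and iron genes 11 rose (29.7%) and 10 fell (27.0%), close to the shares over all tested genes. With total counts 13 rose and 6 fell. SLC30A7, a zinc transporter of the secretory pathway, rose from 53.5 ± 2.26 to 79.0 ± 2.63 CPM. SLC30A4, a zinc transporter, fell from 1117 ± 65.3 to 585 ± 2.93 CPM. SLC39A8, a zinc importer, fell from 126 ± 4.90 to 58.2 ± 2.05 CPM. SLC5A3, a myo-inositol importer, fell from 118 ± 6.33 to 40.1 ± 1.14 CPM.

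Protein-folding genes of the endoplasmic reticulum mostly rose where they were called. The balance among those of the cytosol depended on the scaling, as it did over all tested genes. Of 47 tested genes of the unfolded protein response 21 rose and 3 fell. HSP90B1, an endoplasmic reticulum chaperone, rose from 332 ± 24.4 to 526 ± 9.46 CPM. EDEM1, which directs misfolded glycoproteins to degradation, rose from 51.3 ± 3.17 to 96.8 ± 6.41 CPM. CREB3L4, a membrane-bound factor induced by androgen, rose from 81.2 ± 6.14 to 151 ± 8.004 CPM. HERPUD1, also of degradation, fell from 313 ± 14.5 to 224 ± 5.45 CPM. Among 82 heat shock proteins and cochaperones 19 rose (32 with total counts) and 31 fell (26 with total counts). HSPB1, a small heat shock protein, had 344, 397 and 455.96 CPM in control and 179.8, 157 and 159 with ARv7. CHORDC1, a cochaperone of HSP90, fell from 287 ± 32.4 to 95.2 ± 9.13 CPM. DNAJA1, a cochaperone of HSP70, fell from 368 ± 8.74 to 212 ± 9.50 CPM. HSPA12A, an HSP70 relative, rose from 34.9 ± 2.71 to 74.4 ± 5.10 CPM. Whether the lists differ was not tested.

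**Figure D4:**
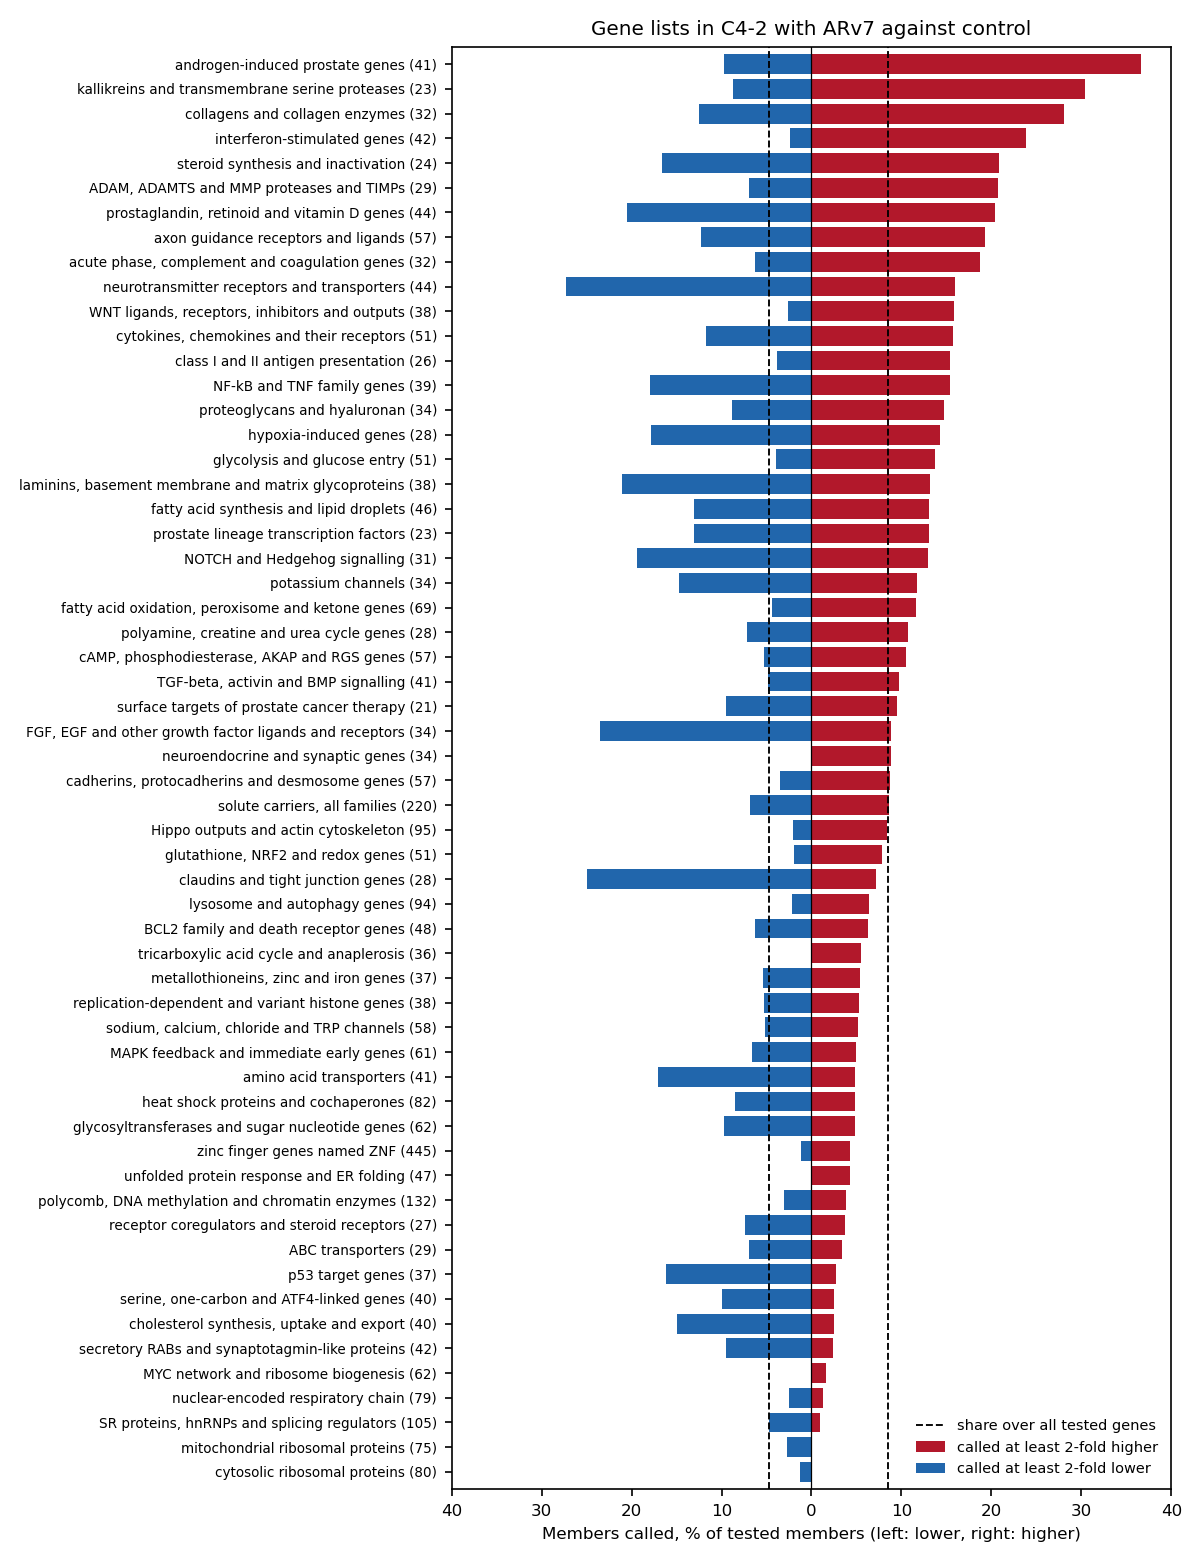
Share of tested members called at least 2-fold higher (red, right) or lower (blue, left) in each list with at least 20 tested members, with the number tested in brackets. Dashed lines mark the shares over all tested genes, 8.52% and 4.73%.

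Of 42 tested secretory RAB and synaptotagmin-like genes 11 rose and 17 fell (14 each way with total counts). SYTL2 and RAB27A, which tether secretory vesicles, fell from 62.2 ± 8.82 to 15.6 ± 1.19 CPM and from 75.5 ± 7.73 to 39.3 ± 1.43 CPM. RAB27B, a close relative, rose from 11.8 ± 1.10 to 27.4 ± 2.61 CPM. Among splicing regulators 42 of 105 rose and 27 fell (15 with total counts). HNRNPA1, a splicing regulator of the hnRNP family, rose from 792 ± 13.03 to 1294 ± 6.84 CPM. HNRNPLL, a relative known from lymphocytes, fell from 194 ± 8.03 to 65.5 ± 3.82 CPM. Chromatin genes fell in 44 of 132 and rose in 28, which became 27 and 56 with total counts. Calls over all tested genes shifted likewise, from 3776 lower and 3781 higher to 2523 and 5159. The shift was thus not particular to this list. ARID5B, a demethylase cofactor, fell from 272 ± 18.2 to 133 ± 1.65 CPM. ARID1A, a remodelling subunit, rose from 121 ± 5.55 to 185 ± 8.72 CPM. Other genes with large falls were CLIP2, a microtubule linker, with 281, 279 and 309 CPM in control and 8.12, 9.56 and 7.87 with ARv7, and RANBP3L, a nuclear export factor, which fell from 282 ± 38.7 to 10.8 ± 1.29 CPM.

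Some changes were shared by neighbouring genes. A total of 9 runs of at least 4 consecutive tested genes were all called at least 2-fold in the same direction. On chromosome 9 (114086126 to 114394405) KIF12, COL27A1, ORM1, ORM2 and AKNA rose, at a median log2 change of 3.15. This median rests on few counts: control libraries summed to 4 for KIF12, 27 for COL27A1, 3 for ORM1 and 8 for ORM2. KIF12 had a ratio of 10.7 (3.86 to 41.1) and COL27A1 of 3.01 (1.92 to 4.855). On chromosome 12 (118032687 to 118372907) WSB2, VSIG10, PEBP1 and TAOK3 fell, at a median of -1.61, and on chromosome 1 (162561506 to 163321791) UAP1, DDR2, HSD17B7 and RGS5 fell, at -1.45. On chromosome 7 (78017055 to 80922359) MAGI2, GNAI1, CD36 and SEMA3C rose, at 1.62, where CD36 lost its call in DESeq2 (adjusted p = 0.0798) and without control replicate 1 or 3 or any ARv7 replicate. DNA copy number was not measured.

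The gain in C4-2 was set beside the loss in 22Rv-1 by testing the difference of the responses, with the 22Rv-1 response read as control minus depleted. The responses differed for 7211 of 14235 genes (50.7%) by edgeR's quasi-likelihood test over all 12 libraries. CLDN4 fell in both (log2 -2.42 and -2.43, difference 0.016, SE 0.0916, adjusted p = 0.910), and MAF rose in both (log2 2.71 and 2.98, difference -0.26, SE 0.130, adjusted p = 0.0994). A p that misses the threshold does not show that the responses were the same.

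Other genes differed in size or direction between the lines. Of all 12080 genes tested in both, 1999 (16.5%) were called in both in the same direction and 1707 (14.1%) in opposite directions with a called difference, 77 of these (0.637% of those tested) by at least 2-fold in each line. The genes named here were chosen for their change in C4-2. ELL2 and FKBP5 rose with ARv7 in both lines and more in C4-2, with differences of 1.19 and 0.32 (edgeR adjusted p = 3.26e-13 and 3.18e-04). TSC22D3 fell more in C4-2 (difference -2.69, adjusted p = 1.34e-24). PEBP1 and SERPINE2, among the strongest falls in C4-2, had log2 -0.0033 and 0.0098 in 22Rv-1 (adjusted p of the difference = 1.34e-24 and 1.20e-24). TXNIP rose by 4.28 in C4-2 and had -3.15 in 22Rv-1, where its level was higher in the depleted libraries (difference 7.44, SE 0.117, adjusted p = 2.22e-34). KLK3 and SEMA3C also went opposite ways, with -0.65 and -2.24 in 22Rv-1 (adjusted p of the difference = 3.30e-21 and 2.21e-20).

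**Figure D5:**
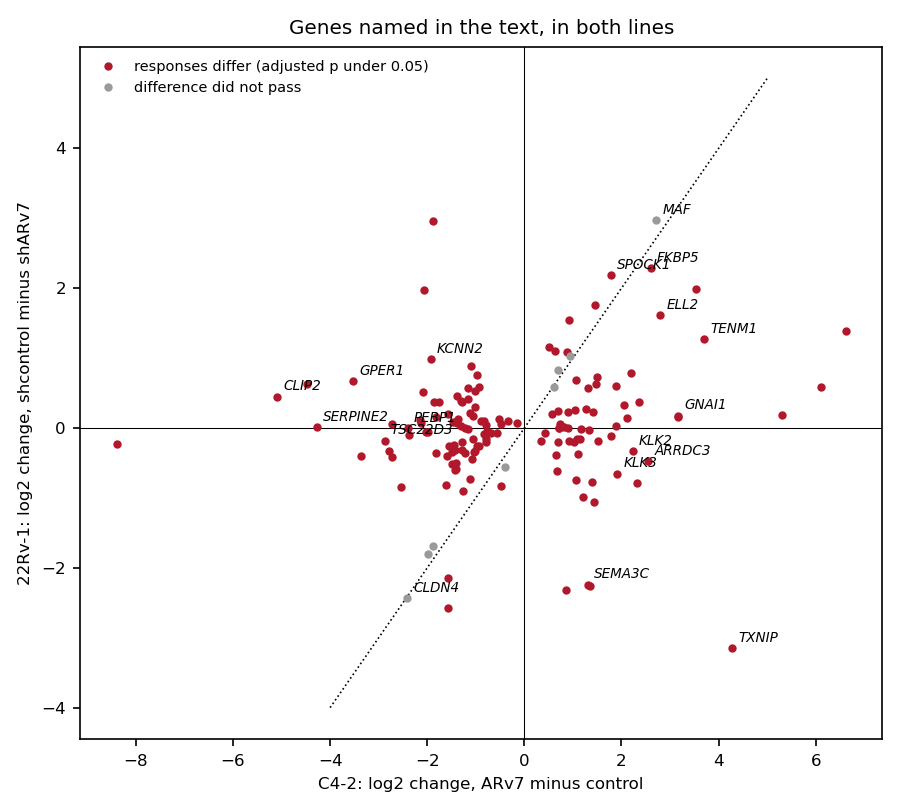
Log2 change in C4-2 (ARv7 minus control) against that in 22Rv-1 (control minus depleted) for the genes named in the text, with red where the responses differ by the test and a dotted line of equal responses. TXNIP lies at 4.28 and -3.15, and CLDN4 at -2.42 and -2.43.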

How the data were processed

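RNA of 12 cell line libraries, 3 in each of 4 groups, was sequenced by the submitters. Per the labels' protocols, cells were lysed in TRIzol and libraries were read on a NovaSeq. Reads were trimmed with Cutadapt 2.7 and the build is named hg18, per the submitters' processing notes, while the deposited gene positions matched GENCODE release 29 on GRCh38 within 10000 bp for 19655 of the 19876 genes found there, of 19973 in all. Of the aligner, the counter and the strand setting nothing is given in the sources used here, so overlapping and antisense genes cannot be separated. The authors deposited raw counts and FPKM values (counts scaled by gene length and library total) per gene. All FPKM values equalled count over length and total within 0.1%.

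Groups came from the labels. Genes kept by filterByExpr were tested in the 6 C4-2 libraries with edgeR 4.0.16, TMM scaling, glmQLFit and glmQLFTest, with Benjamini-Hochberg adjustment over all tested genes and a threshold of 0.05. The difference between lines was a contrast in a fit of all 12 libraries. SDs are over 3 libraries per group. Standard errors are the absolute log2 change divided by the square root of the F statistic of glmQLFTest. They rest on a spread estimated partly across genes, and those of differences between lines come from the fit of all 12 libraries. Where a group summed to fewer than 30 counts, a ratio of counts was given with an exact 95% interval that covers counting error only. A floor of 3 counts, 0.204 to 0.244 CPM per library, stood in for 0. Total counts were 12318529 to 14672948 in C4-2, and the biological coefficient of variation was 0.0655. The code was tested on simulated data. Alternatives were DESeq2 1.42.0, its size factors, total counts, no filter, a mean of at least 5 CPM, the replicate block, the 12-library fit, limma 3.58.1 on log2(FPKM + 1) (mean FPKM of 1 or more), and the omission of each library in turn.

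The gene lists were chosen with earlier results of these data known. Named genes were taken from the 4 called members of each list with the smallest adjusted p (mean of at least 5 CPM, groups not overlapping) and the 2 leading members against the majority, the 20 largest rises and falls, the 12 largest in FPKM, genes at 0 counts in 1 group, and runs of at least 4 neighbours, besides a few chosen after their values were seen. Not every gene this rule gives is printed. Same-numbered replicates did not deviate together (correlations of -0.057, 0.015 and -0.044), so the numbers were not taken as pairs. Promoters and their starts came from RefSeq (GRCh38.p14). The gene of the construct is not reported here.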

Additional observations from a re-analysis of the deposited data

Results flagged for a closer look

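The response to ARv7 differed between the gain in C4-2 and the loss in 22Rv-1 for 7211 genes by edgeR's quasi-likelihood test over all 12 libraries. Of 12080 genes tested in both lines, 77 (0.637%) were called at least 2-fold in opposite directions with a called difference. Those described next are the ones named in the text, and were chosen for their change in C4-2. Among these genes of opposite direction, TXNIP, the arrestin that restrains glucose uptake, had the widest difference, 7.44 on the log2 scale (adjusted p = 2.22e-34). RELN, the secreted guidance protein, fell in C4-2 (log2 -1.88) and had 2.97 in 22Rv-1, a difference of -4.84. MT2A, the metallothionein, had log2 -2.07 and 1.98, a difference of -4.04. CD36, a fatty acid receptor, had 1.35 and -2.26, a difference of 3.62, with the C4-2 call lost under several settings. In C4-2 it summed to 15 counts in control and 40 with ARv7, a ratio of 2.85 (1.54 to 5.55). SEMA3C, the semaphorin, differed by 3.55, and COL27A1, a collagen gene, by 2.50, with 1.44 and -1.06 in the lines. COL27A1 was low in C4-2, with 27 counts in control and 76 with ARv7, a ratio of 3.01 (1.92 to 4.855). In 22Rv-1 it stood at 82.3 CPM in control and 172 in depleted libraries. No test of these differences used 22Rv-1 libraries with ARv7 added.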

How the results depend on the processing

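Each count over all genes stayed within 1.5 times its value except as follows. With limma on log2(FPKM + 1), the higher calls numbered 4265 and the lower calls 2237, and those at least 2-fold 396 and 194. That setting changes the scale, the filter and the normalization together, FPKM being scaled by total counts, and the cause was not tested. With a mean of 5 CPM or more required, 579 and 321 genes were called at least 2-fold higher and lower, where fewer genes were tested. Total counts in place of TMM gave 5159 higher and 2523 lower calls, 1351 and 474 of them at least 2-fold. Leaving out each library in turn gave 3343 to 3927 higher and 3330 to 3943 lower calls, 1082 to 1154 and 604 to 654 at least 2-fold, and 6752 to 7308 differences between lines.

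The replicate block gave 3679 higher and 3631 lower calls, 1099 and 608 at least 2-fold, and 6865 differences between lines, although the pairing has no support in the deviations. It ended the call of FOXA1 among the named genes. FOXA1 had log2 0.002 with total counts and 0.001 with limma, and lost its call also without ARv7 replicate 2 or 3 or control replicate 2. NFAT5 lost its call with total counts and with limma. CD36 lost its call in DESeq2, without a filter and without 5 of the 6 libraries. The cause was not tested. Of 2341 pairs of a named gene and a setting, 2326 kept direction and call. Of the counts of list members over all settings, 1973 stayed within 1.5 times their value and 183 did not. At this depth 3 counts in a library stand for 0.204 to 0.244 CPM, which limits what can be said of genes at 0.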

Other observations

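Genes of organic osmolyte uptake and synthesis, which help cells keep their volume, were looked at together after their values were seen, and form no list of the report. SLC6A6, the taurine transporter, had 22.6, 22.6 and 21.7 CPM in control and 6.24, 4.24 and 4.63 with ARv7 (log2 -2.14, edgeR adjusted p = 1.97e-10). ISYNA1, which makes the inositol precursor, had 36.7, 40.3 and 40.3 CPM in control and 2.66, 4.30 and 4.55 with ARv7 (log2 -3.36). The groups did not overlap in either gene. Beside them stand the falls of SLC6A12, the betaine transporter, and SLC5A3, the inositol importer. NFAT5, the factor that induces such genes in hypertonic medium, went from 184 ± 25.1 to 147 ± 4.83 CPM (log2 -0.33, edgeR adjusted p = 9.76e-04). That call was lost with total counts (log2 -0.19, adjusted p = 0.0649) and with limma on log2(FPKM + 1) (adjusted p = 0.151). In 22Rv-1 the log2 changes, control minus depleted, were 0.07 for SLC6A6, -0.41 for ISYNA1 and -0.26 for SLC5A3, and the differences from C4-2 were -2.20, -2.95 and -1.29 (adjusted p = 1.55e-16, 1.53e-18 and 5.24e-13).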
